A study of Mus musculus with 24 samples.

Results

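The genes described here are 34 genes of fatty acid uptake and oxidation, matched by symbol to a list of pathway members, out of 55401 genes in the deposited count table. All 34 were found, and all 34 passed the filter on low counts in each comparison. Ribosome-depleted total RNA libraries were sequenced for 3 tissues of C57BL6/J mice, 16.5 or 86 weeks old: kidney, skeletal muscle and the left ventricle of the heart. Each tissue has 8 libraries: 2 females and 2 males at each age, with no treatment and no genetic change named for any group. The library titles carry a mouse number that recurs in all 3 tissues, so the 24 libraries come from 8 mice. The labels do not name the muscle that was taken. A replicate number below is the mouse number, and mouse 14 at 16.5 weeks (a female) is a different animal from mouse 14 at 86 weeks (a male).

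Long-chain fatty acids enter a cell with the help of CD36 and fatty acid transport proteins, are carried in the cytosol by binding proteins, and are activated to acyl-CoA. The carnitine shuttle then moves the acyl group into the mitochondrion: CPT1 makes acylcarnitine at the outer membrane, SLC25A20 carries it across the inner membrane, and CPT2 returns it to CoA. Inside, acyl-CoA dehydrogenases of different chain-length preference, hydratases, 3-hydroxyacyl-CoA dehydrogenases and thiolases shorten the chain step by step, and electrons leave through the electron transfer flavoprotein. Peroxisomes run a parallel pathway on very-long-chain and branched substrates. Heart muscle and the kidney proximal tubule are known for a heavy reliance on fatty acids, while fast-twitch muscle relies more on glycogen and glucose.

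Start-site sequence is shown in 4 stretches, for genes whose levels are followed below: the gap between the head-to-head genes Hadha and Hadhb, whose proteins form a single enzyme, the upstream region of Acadm, and those of the neighbouring paralogues Acot1 and Acot2, of which the first was highest in kidney and the second in left ventricle. The sequences are RefSeq promoter windows on GRCm38.p6, cut to bases that no GENCODE exon covers, and 30 of the 34 genes have such a window (not Cpt1b, Acaa2, Decr1 or Hsd17b4). Capitals mark GGGCGG, the GC box, or its reverse complement in the Hadhb, Acot1 and Acot2 lines, and AAGGTCA, the core of the element that oestrogen-related receptors bind, or its reverse complement in the Acadm line.
Hadha-Hadhb gap, chr5:30155163-30155247, plus strand: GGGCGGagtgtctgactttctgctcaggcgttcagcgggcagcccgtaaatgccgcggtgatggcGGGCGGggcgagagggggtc
Acadm upstream, chr3:153944644-153944893, minus strand: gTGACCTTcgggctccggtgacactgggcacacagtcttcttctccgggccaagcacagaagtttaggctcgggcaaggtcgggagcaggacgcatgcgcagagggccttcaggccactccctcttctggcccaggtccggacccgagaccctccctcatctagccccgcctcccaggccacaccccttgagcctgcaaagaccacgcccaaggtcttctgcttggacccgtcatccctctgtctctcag
Acot1 upstream, chr12:84009252-84009489, plus strand: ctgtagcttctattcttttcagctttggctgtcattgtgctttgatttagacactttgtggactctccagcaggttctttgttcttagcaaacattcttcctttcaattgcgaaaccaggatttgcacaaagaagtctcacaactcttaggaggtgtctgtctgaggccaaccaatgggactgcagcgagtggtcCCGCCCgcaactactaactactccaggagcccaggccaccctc
Acot2 upstream, chr12:83987611-83987860, plus strand: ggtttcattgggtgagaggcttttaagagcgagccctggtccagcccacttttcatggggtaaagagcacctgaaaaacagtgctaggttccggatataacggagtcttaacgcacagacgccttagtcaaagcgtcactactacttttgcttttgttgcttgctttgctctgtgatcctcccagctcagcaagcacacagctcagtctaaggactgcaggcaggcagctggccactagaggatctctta

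Both GC boxes printed in the 85-base Hadha-Hadhb gap lie on the plus strand, and the Acot2 sequence holds none. The RefSeq start sites of Hadha and Hadhb have 272 bases between them, of which the gap is a part. Over the full 300-base windows (250 bases before the start and 50 after, both strands), GGGCGG was found in 22 of 30 members and in 35.7% of all 32851 windows. AAGGTCA was found in 2 of 30 members, Acadm and Slc27a2, and in 4.72% of all windows. The direct repeat of AGGTCA with 1 base of any kind between the copies, the element of PPAR-RXR dimers, which can overlap the AAGGTCA motif, was found in 0 of 30 members and in 0.0396% of all windows. A member was counted if any of its windows matched, while the percentages are over single windows, so the counts and percentages are unlike measures. A match is a match of letters and no measurement of binding.

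Library totals ran from 52602585 counts in the left ventricle of 86-week mouse 17 to 103797551 counts in the skeletal muscle of 86-week mouse 12. Marker genes fit the tissue labels: summed proximal tubule markers were 12809 to 25897 CPM (counts scaled to library size) in kidney, cardiomyocyte markers 45019 to 62630 CPM in left ventricle, and fast-fibre markers 123773 to 171727 CPM in skeletal muscle, against a slow-fibre sum of 35.7 to 172 CPM in that muscle. Some libraries had raised marker sums of another tissue, called traces below, and their source was not tested. Proximal tubule markers reached 106 CPM in the skeletal muscle of 16.5-week mouse 19 (at most 41.9 CPM in the other muscles), and 87.7 and 61.0 CPM in the left ventricles of 16.5-week mouse 20 and 86-week mouse 14 (33.0 to 42.3 CPM in the other left ventricles). Cardiomyocyte markers reached 557 CPM in the skeletal muscle of 16.5-week mouse 15 and 450 CPM in that of 86-week mouse 17 (86.5 to 264 CPM in the others). Slow-fibre markers, at 13944 to 18451 CPM in left ventricle, were at 39.6 CPM in the muscle of mouse 15 and 172 CPM in that of mouse 17. The kidney of 16.5-week mouse 15 had an adipocyte marker sum of 228 CPM, against 6.75 to 37.1 CPM in the other 7 kidneys, with Ucp1 of brown fat at up to 42.7 CPM. The left ventricle of 16.5-week mouse 15 had a fast-fibre marker sum of 66.2 CPM, against 13.5 to 19.2 CPM in the other 7.

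The left ventricle held the highest level of most of these genes and skeletal muscle the lowest. Levels between tissues and between genes are given as CPM per kilobase of exon, scaled over all 24 libraries. The length is that of all annotated exons of a gene together, which need not be the length of the transcript expressed. The left ventricle was highest for 24 of the 34 genes, kidney for 9 (Slc22a5, Cpt1a, Ehhadh, Hsd17b4, Acaa1a, Acaa1b, Slc27a2, Ppara and Acot1) and skeletal muscle for 1 (Ucp3). Skeletal muscle was lowest for 27. In 18 genes every left ventricle library lay above all 16 libraries of the other tissues, as did 3.56% of all 46984 genes tested, and in 8 genes every kidney library did (9.71% of all genes). In 20 genes every skeletal muscle library lay below all others (5.51% of all genes). Together the 34 genes took 1.04% ± 0.088 (SD, n = 8) of all counts in left ventricle, 0.854% ± 0.078 in kidney and 0.149% ± 0.0087 in skeletal muscle. In bulk tissue, fewer cells of a type and less RNA per cell cannot be told apart.

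**Figure D1:**
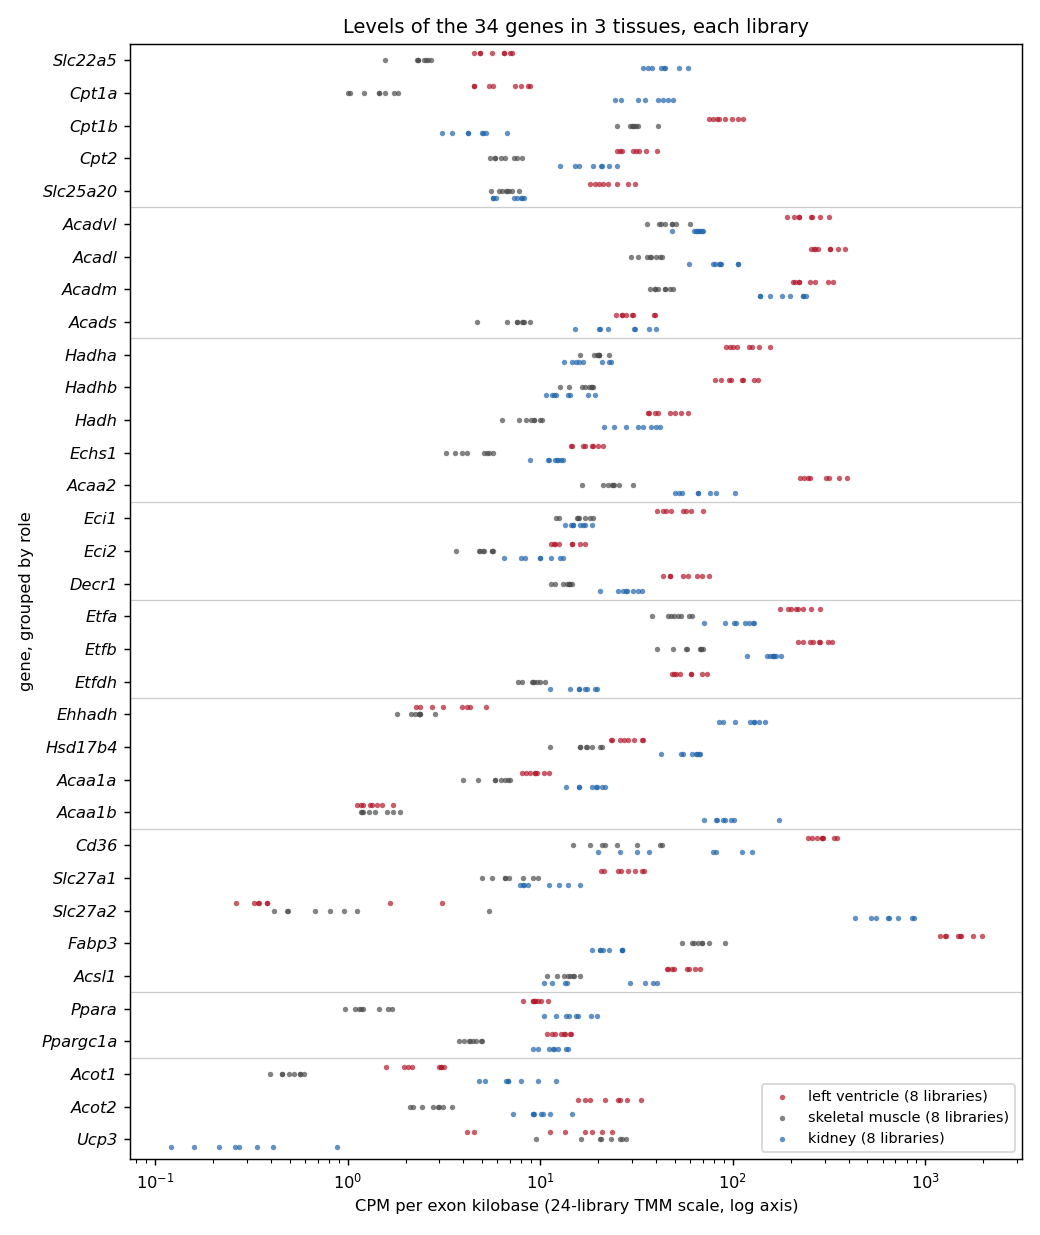
Level of each of the 34 genes in CPM per kilobase of exon (log axis), 1 point per library, 8 libraries per tissue, with horizontal lines between roles. Left ventricle points lie farthest to the right for 24 genes by mean, and kidney points for the peroxisomal genes, Slc27a2, Slc22a5, Cpt1a, Ppara and Acot1.

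Against skeletal muscle, 31 of the 34 genes were higher in left ventricle at an adjusted p under 0.05 (edgeR quasi-likelihood test, Benjamini-Hochberg over all genes) and 0 were lower, where 15.4% of all genes were higher, 11.3% lower and 26.6% either. Of the 31, 28 were at least 2-fold higher (5.84% of all genes). The median log2 difference was 2.1 over the 34 genes and -0.12 over all genes tested. Against left ventricle, kidney was higher for 9 genes and lower for 23, where 19.3% of all genes were higher, 14.3% lower and 33.6% either, and the median was -0.90 (all genes -0.095). Against skeletal muscle, kidney was higher for 27 genes and lower for 4, where 22.1% of all genes were higher, 21.4% lower and 43.5% either, and the median was 1.38 (all genes -0.23). The 3 comparisons share libraries.

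In the carnitine shuttle the 2 CPT1 isoforms differed in their highest tissue, left ventricle for Cpt1b and kidney for Cpt1a. Cpt1b, the muscle isoform, ranged from 75.7 to 113 CPM per kb in left ventricle (median 88.1), from 25.1 to 41.1 in skeletal muscle (median 30.6) and from 3.09 to 6.73 in kidney (median 4.63). The 3 ranges do not overlap. Cpt1a, the liver-type isoform, ranged from 24.6 to 49.2 CPM per kb in kidney (median 38.0), from 4.53 to 8.91 in left ventricle (median 6.57) and from 1.01 to 1.83 in skeletal muscle (median 1.46), again without overlap. The kidney minus left ventricle log2 difference was -4.33 ± 0.11 (SE) for Cpt1b and 2.47 ± 0.13 for Cpt1a (edgeR adjusted p = 1.02e-21 and 7.83e-15). As a share of both isoforms per kilobase, Cpt1b made up 11.6% ± 4.1 (SD, n = 8) in kidney, 93.3% ± 1.1 in left ventricle and 95.7% ± 0.60 in skeletal muscle. Of the 50-base windows in Cpt1b transcripts, 78.6% also occur in the overlapping gene Gm44502, so reads of the 2 genes may have been divided. Gm44502 itself lay between 0.683 and 10.5 CPM in left ventricle.

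Slc22a5 encodes OCTN2, which takes up carnitine from the blood side or from the tubule lumen. It was highest in kidney, at 43.9 ± 8.4 CPM per kb (SD, n = 8), with 5.87 ± 1.0 in left ventricle and 2.36 ± 0.35 in skeletal muscle. A share of 26.3% of its windows also occur elsewhere, mostly in Slc22a21, so its level is uncertain. Slc25a20 and Cpt2, the later steps of the shuttle, were highest in left ventricle, at 23.3 ± 4.6 and 31.0 ± 5.2 CPM per kb. Slc25a20 did not pass the test between kidney and skeletal muscle (log2 difference 0.07 ± 0.088, and -0.13 with a filter of 1 CPM).

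All 4 acyl-CoA dehydrogenases were higher in left ventricle than in skeletal muscle, by 2.02 to 3.03 on the log2 scale. Acadvl, for very long chains, was at 245 ± 42 CPM per kb in left ventricle and 64.4 ± 6.9 in kidney, and Acadl, for long chains, at 305 ± 46 and 86.3 ± 15. Kidney was lower than left ventricle by -1.92 ± 0.098 for Acadvl and -1.83 ± 0.094 for Acadl. Acadm, for medium chains and the second highest member in kidney, was at 253 ± 47 CPM per kb in left ventricle and 189 ± 42 in kidney, with overlapping ranges. Its kidney minus left ventricle difference was -0.43 ± 0.10 (edgeR adjusted p = 0.00107), and -0.14 (adjusted p = 0.0773) with library totals in place of normalization factors. Acads, for short chains, did not pass in that comparison (log2 difference -0.23 ± 0.11, adjusted p = 0.107, and 0.058 with library totals).

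The mitochondrial trifunctional protein is made of the alpha chain from Hadha and the beta chain from Hadhb, the genes on either side of the gap printed above. Their levels in each tissue were close: 117 ± 22 and 106 ± 19 CPM per kb in left ventricle, 19.8 ± 1.8 and 16.8 ± 2.2 in skeletal muscle, and 17.9 ± 3.9 and 13.9 ± 3.1 in kidney. Left ventricle was above skeletal muscle by 2.55 ± 0.097 for Hadha and 2.65 ± 0.11 for Hadhb on the log2 scale. Between kidney and skeletal muscle the direction rested on the scaling: Hadha was at -0.17 ± 0.092 and Hadhb at -0.29 ± 0.10 (adjusted p = 0.130 and 0.0225), but at 0.42 and 0.31 with library totals, and Hadhb lost its call in 6 of 8 fits that left out a mouse. A share of 19.7% of Hadhb windows also occur in other genes, mostly Gm13910.

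The enzymes that act on shorter chains had the same top tissue. Acaa2, the mitochondrial 3-ketoacyl-CoA thiolase, was at 291 ± 62 CPM per kb in left ventricle, 68.9 ± 18 in kidney and 23.5 ± 3.9 in skeletal muscle. This gave a left ventricle minus skeletal muscle difference of 3.62 ± 0.12, the second largest of the 34 after Fabp3. Echs1, the short-chain hydratase, and Hadh, the short-chain 3-hydroxyacyl-CoA dehydrogenase, were at 17.7 ± 2.4 and 45.6 ± 8.4 CPM per kb in left ventricle and lower in kidney, with log2 differences of -0.60 ± 0.088 and -0.51 ± 0.099. Among the auxiliary enzymes for unsaturated chains, Decr1, the dienoyl-CoA reductase, was at 57.6 ± 11, 28.1 ± 4.1 and 13.4 ± 1.2 CPM per kb in left ventricle, kidney and skeletal muscle. The isomerase genes Eci1 and Eci2 were also highest in left ventricle, and Eci1 did not pass between kidney and skeletal muscle (0.01 ± 0.088, and -0.20 with a filter of 1 CPM). Of the electron carriers, Etfa and Etfb, the 2 chains of the electron transfer flavoprotein, and Etfdh, its dehydrogenase, were lower in kidney than in left ventricle, with log2 differences of -1.05 ± 0.094, -0.78 ± 0.10 and -1.84 ± 0.093. Etfb shares 44.8% of its windows with other genes, mostly the overlapping Gm45233.

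All 4 peroxisomal genes were higher in kidney than in both other tissues. Ehhadh, the peroxisomal bifunctional enzyme, ranged from 85.1 to 147 CPM per kb in kidney (median 126), from 2.27 to 5.23 in left ventricle (median 3.55) and from 1.81 to 2.83 in skeletal muscle (median 2.36). The kidney minus left ventricle difference was 5.07 ± 0.15 (edgeR adjusted p = 1.29e-20). Hsd17b4, the second peroxisomal bifunctional enzyme, was at 59.6 ± 8.6, 28.5 ± 4.3 and 17.3 ± 3.0 CPM per kb in kidney, left ventricle and skeletal muscle. The peroxisomal thiolases Acaa1a and Acaa1b differed from each other. Acaa1b was at 98.8 ± 32 CPM per kb in kidney and at 1.35 ± 0.20 and 1.43 ± 0.27 in left ventricle and skeletal muscle, whereas Acaa1a was at 18.3 ± 2.8, 9.43 ± 1.0 and 5.87 ± 1.0. Acaa1a made up 16.1% ± 2.6 of the pair in kidney, 87.5% ± 1.5 in left ventricle and 80.3% ± 2.2 in skeletal muscle. The thiolases share 12.9% (Acaa1a) and 30.5% (Acaa1b) of their windows with other genes, mostly with each other, so the shares are uncertain. Acaa1b did not pass between left ventricle and skeletal muscle (-0.09 ± 0.15, and 0.23 with library totals).

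Uptake and binding genes included those with the largest differences between tissues. Fabp3, the heart-type fatty acid binding protein, was the highest of the 34 genes in left ventricle and in skeletal muscle. It ranged from 1188 to 1969 CPM per kb in left ventricle (median 1494), from 54.3 to 91.1 in skeletal muscle (median 67.4) and from 18.6 to 26.6 in kidney (mean 22.9 ± 3.2), with no overlap. The left ventricle minus skeletal muscle difference was 4.44 ± 0.13 (edgeR adjusted p = 2.78e-20), although 29.2% of its windows also occur in the pseudogene Fabp3-ps1. Slc27a2, a very-long-chain acyl-CoA synthetase and transport protein, was the highest of the 34 genes in kidney and the lowest in left ventricle. It ranged from 429.5 to 874 CPM per kb in kidney (median 644), from 0.265 to 3.10 in left ventricle (median 0.365) and from 0.413 to 5.46 in skeletal muscle (median 0.745). The kidney minus left ventricle difference was 9.90 ± 0.55 on the log2 scale (adjusted p = 1.83e-14). The left ventricles of 16.5-week mouse 20 and 86-week mouse 14 and the skeletal muscle of 16.5-week mouse 19 held the highest Slc27a2 levels of their tissues. These are the same 3 libraries that held the highest proximal tubule marker sums of those tissues, and the part of these traces in the values was not tested. Left ventricle and skeletal muscle did not pass the test against each other for Slc27a2 (-0.75 ± 0.42). The estimate rested on single mice: it was 0.17 without 16.5-week mouse 19, and -1.37 without 16.5-week mouse 20, where it passed. It was 0.091 without the 3 muscle libraries whose proximal tubule or cardiomyocyte sum was over 3 times the tissue median, a rule that left all left ventricle libraries in.

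Cd36, the fatty acid translocase, ranged from 247 to 347 CPM per kb in left ventricle (median 292), from 19.9 to 126 in kidney (median 57.8) and from 14.8 to 42.8 in skeletal muscle (median 23.3). Kidney and skeletal muscle overlapped, and kidney libraries spread the most relative to their median. Acsl1, which activates long-chain fatty acids, was at 54.9 ± 8.5, 24.1 ± 13 and 13.8 ± 1.6 CPM per kb in left ventricle, kidney and skeletal muscle, and Slc27a1, an insulin-responsive transport protein of muscle and fat, at 27.7 ± 5.2, 10.8 ± 3.2 and 7.23 ± 1.7. The regulators differed in their highest tissue. Ppara, the nuclear receptor that drives oxidation genes, was at 14.9 ± 3.1 CPM per kb in kidney, 9.53 ± 0.80 in left ventricle and 1.29 ± 0.26 in skeletal muscle, with kidney and left ventricle overlapping in range but differing by 0.64 ± 0.10 (adjusted p = 6.61e-06). Ppargc1a, the coactivator of mitochondrial genes, did not pass between kidney and left ventricle (-0.15 ± 0.077, and 0.13 with library totals) and was higher in left ventricle than in skeletal muscle by 1.54 ± 0.078.

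The acyl-CoA thioesterases Acot1, of the cytosol, and Acot2, of mitochondria, release free fatty acid and CoA, and their genes lie next to each other. Acot2 was at 23.3 ± 6.2 CPM per kb in left ventricle, 10.2 ± 2.1 in kidney and 2.77 ± 0.48 in skeletal muscle, and Acot1 at 2.50 ± 0.62, 7.50 ± 2.4 and 0.507 ± 0.069. Kidney was above left ventricle by 1.57 ± 0.13 for Acot1 and below it, at -1.20 ± 0.12, for Acot2. Acot2 made up 58.0% ± 3.8 of the pair in kidney, 90.2% ± 0.77 in left ventricle and 84.2% ± 3.6 in skeletal muscle, with 19.2% of Acot1 and 27.7% of Acot2 windows found in other genes, mostly in each other. Ucp3, an inner membrane carrier of muscle whose level is known to rise with fatty acid supply, was at 21.4 ± 6.2 CPM per kb in skeletal muscle, 14.2 ± 7.2 in left ventricle and 0.332 ± 0.24 in kidney. Left ventricle and skeletal muscle did not pass for Ucp3 (-0.64 ± 0.28, edgeR adjusted p = 0.101) but did with the mouse as a replicate block (-0.69, adjusted p = 0.0491).

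**Figure D2:**
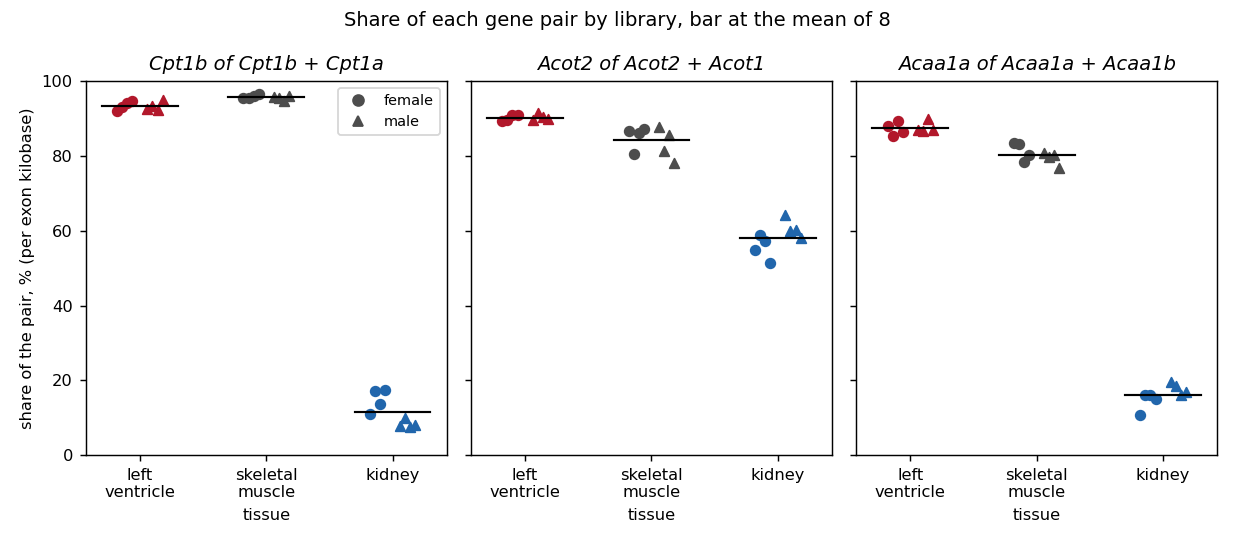
Share in percent that the first gene takes of each pair (levels per kilobase of exon), 1 point per library, circles for females and triangles for males, bar at the mean of 8. Cpt1b and Acaa1a take most of their pair in left ventricle and skeletal muscle and 11.6% and 16.1% in kidney, while Acot2 falls from 90.2% to 58.0%.

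At an adjusted p under 0.05, 0 of the 34 genes differed between 86 and 16.5 weeks in kidney (0.112% of all genes called), 0 in left ventricle (0.0741%) and 0 in muscle (0.0183%), by edgeR and also by DESeq2. At an unadjusted p under 0.05 edgeR gave 21, 4 and 1 genes in that order, against 3549 of 44572, 1501 of 44546 and 2408 of 43711 over all genes. The test for an age change that differs between tissues called 0 of 34 (0.0319% of all genes), with 2 at an unadjusted p under 0.05 (1909 of 46984 over all genes). The 3 smallest p in that test belonged to Acadl, Slc25a20 and Acot2, each with an adjusted p of 1. Age changes below are log2 differences, 86 minus 16.5 weeks, and levels within a tissue are CPM scaled within that tissue.

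**Figure D3:**
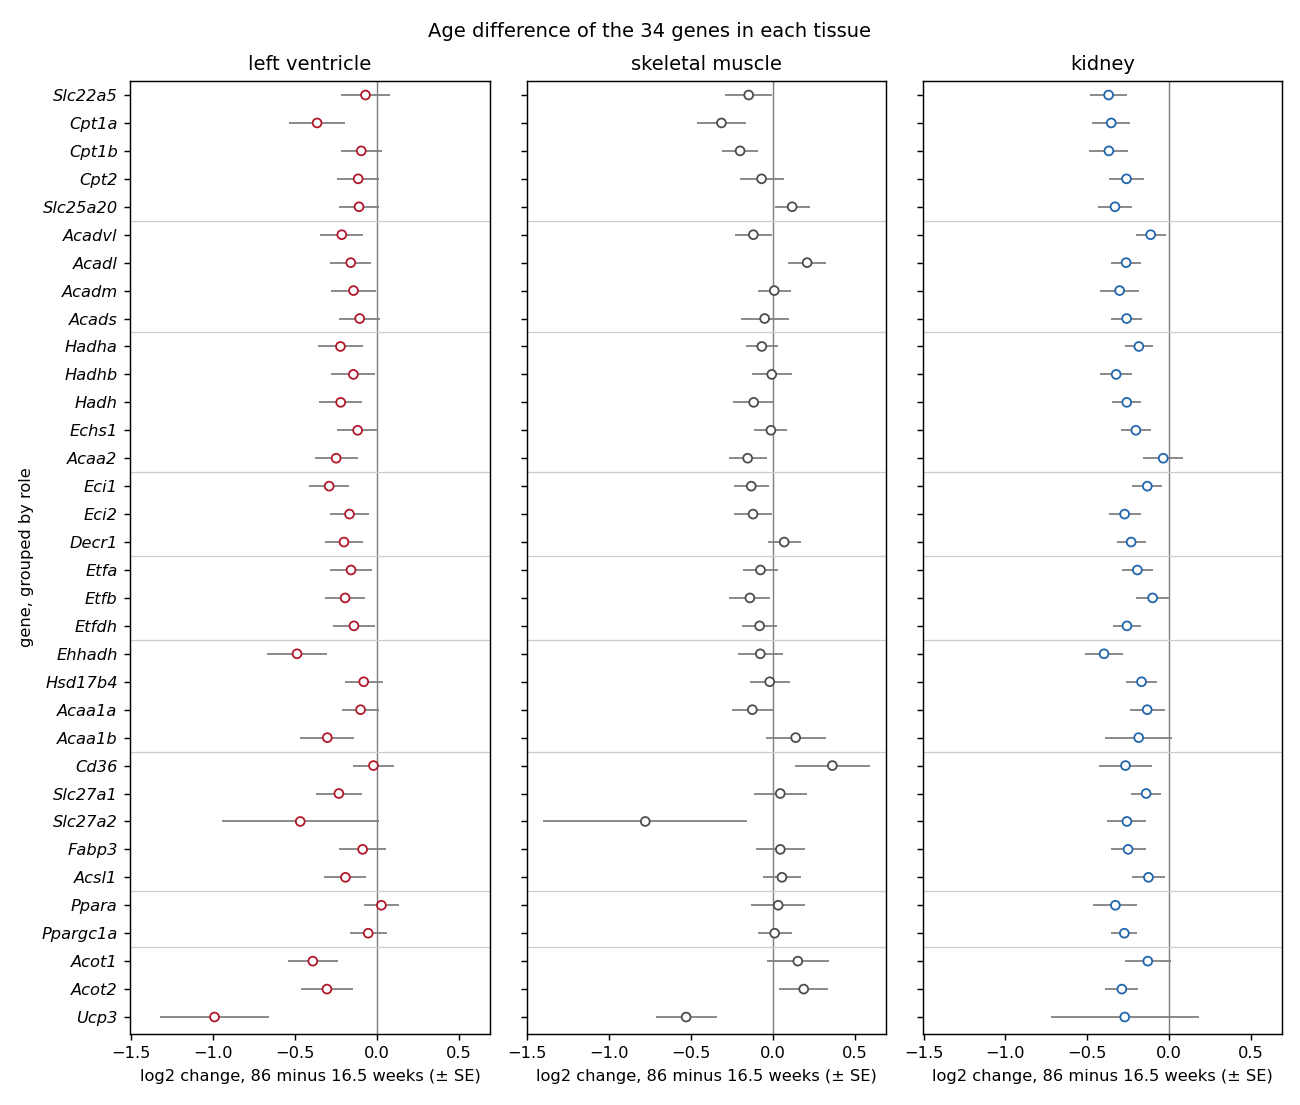
Age difference of each gene (86 minus 16.5 weeks, log2 scale) with its SE, in each tissue, from 4 libraries per age. None of the points passed the test. In kidney all 34 lie below 0, in left ventricle 33, and in skeletal muscle 21.

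In kidney the age estimates of all 34 genes were below 0, with a median of -0.26 against 0.023 over all genes tested. The lowest was Ehhadh. Its kidney values at 16.5 weeks were 529 and 469 CPM in females and 499 and 456 in males, and at 86 weeks 329.95 and 447 in females and 391 and 315 in males. The 2 age groups do not overlap, and the estimate was -0.40 ± 0.11 (edgeR adjusted p = 0.328). Echs1 was the other gene without overlap, at 122 to 131 CPM at 16.5 weeks and 95.6 to 117 at 86 weeks, with an estimate of -0.20 ± 0.090. These were 2 of 34 genes lower without overlap (1.5% of all genes), and 0 were higher without overlap (2.28%). Ppargc1a was at -0.27 ± 0.079, with 108, 112, 94.4 and 96.8 CPM at 16.5 weeks and 95.9, 93.3, 76.7 and 75.5 at 86 weeks, which overlap. Slc25a20 was at -0.33 ± 0.10 and Hadhb at -0.32 ± 0.097, with adjusted p of 0.374 and 0.354. As ratios of means of 2 mice, the change was below 0 in both sexes for 28 of the 34 genes. The same count was 28 in left ventricle and 8 in skeletal muscle. The share over all genes was not computed.

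Other quantities also varied between the kidney libraries. The kidney of 86-week mouse 11 held the lowest value of 18 of the 34 genes, and its proximal tubule marker sum, 12809 CPM, was the lowest of the 8. Those markers, 12 genes, summed to 16977 to 25897 CPM at 16.5 weeks and 12809 to 22958 CPM at 86 weeks, with 11 of 12 estimates below 0 and 0 called. Macrophage markers had 9 of 9 estimates above 0 and 0 called, at 106 to 132 CPM at 16.5 weeks and 125 to 261 CPM at 86 weeks. The part of these in the age estimates was not tested. Without mouse 11 the median was -0.21, and with library totals in place of normalization factors it was -0.16.

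In left ventricle 33 of the 34 age estimates were below 0, with a median of -0.16 (all genes 0.0074). Cardiomyocyte markers summed to 54074 to 62630 CPM at 16.5 weeks and 45019 to 61005 CPM at 86 weeks, and macrophage markers to 169 to 203 and 169 to 252 CPM, with 0 of either list called. Their part in the estimates was not tested. Ucp3 had the largest estimate. At 16.5 weeks it was at 74.9 and 43.2 CPM in females and 66.8 and 52.7 in males, and at 86 weeks at 36.1 and 14.6 in females and 57.5 and 13.1 in males. Mouse 14 alone kept the 86-week group in the range of the younger one. The estimate was -0.99 ± 0.33 (edgeR adjusted p = 0.992), and without that library it passed, at -1.59 (adjusted p = 0.0383). Ehhadh followed at -0.49 ± 0.18, Acot1 at -0.39 ± 0.15 and Eci1 at -0.29 ± 0.12, each with an adjusted p near 1. In 0 of 34 genes did the age groups lie apart in left ventricle (1.25% of all genes higher, 0.871% lower). The left ventricle of 16.5-week mouse 20 held the highest value of 29 of them and that of 86-week mouse 12 the lowest of 17. Leaving out each mouse in turn gave medians from -0.25 to -0.084, and library totals in place of normalization factors gave -0.12.

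In skeletal muscle 21 estimates were below 0 and 13 above, with a median of -0.059 that became 0.054 with library totals. The muscle of 86-week mouse 17, with the cardiomyocyte traces, held the lowest value of 19 of the 34 genes, and without it the median was -0.010. Ucp3 was again the named gene with the smallest p, at -0.53 ± 0.19 (edgeR adjusted p = 0.820). Its values were 64.1, 71.9, 67.3 and 51.2 CPM at 16.5 weeks and 56.8, 41.1, 52.7 and 26.2 CPM at 86 weeks, so the groups overlap. Cpt1a was at -0.31 ± 0.15, Cpt1b at -0.20 ± 0.11 and Acadl at 0.21 ± 0.12. Cd36 was at 0.36 ± 0.23: its 2 highest values, 119.9 and 121 CPM, came from the 86-week females, whose adipocyte marker sums of 224 and 188 CPM were also the highest of the 8 muscles (16.3 to 125 CPM in the others). The part of fat in that estimate was not tested.

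In kidney, 17 of the 34 genes differed between males and females at an adjusted p under 0.05 (7.58% of all genes), 8 of them higher in males (3.77% of all genes) and 9 lower (3.81%). The median over the 34 genes was 0.035 (all genes -0.018), with changes in both directions. All 17 had the same sign at 16.5 and at 86 weeks, from 2 mice per sex and age. The 17 were picked on these same libraries, so the shared sign is no separate test. Of the 17, 10 were called in each of the 8 fits that left out a library (Acaa2, Acads, Acot1, Acsl1, Cd36, Eci2, Etfa, Hadh, Hadha and Slc27a1). The other 7 (Acadm, Acot2, Cpt1a, Cpt1b, Cpt2, Hadhb and Slc27a2) were lost in at least 1, and the count fell to 10 without 16.5-week mouse 19 and to 11 without 16.5-week mouse 15. A single fit of all 24 libraries called 9. Sex differences below are male minus female.

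The largest sex differences were in uptake and activation. Cd36 in kidney was at 113 and 139.9 CPM in the 16.5-week females, 92.8 and 161 in the 86-week females, 552 and 476 in the 16.5-week males and 359 and 347 in the 86-week males. Every male lay above every female, and the log2 difference was 1.75 ± 0.17 (edgeR adjusted p = 7.39e-06), or 2.02 at 16.5 weeks and 1.47 at 86 weeks as ratios of means. Acsl1 went the other way, with 510.1 and 491 CPM in the younger females, 402 and 449 in the older ones, 147 and 169 in the younger males and 140.1 and 171 in the older ones. Its difference was -1.56 ± 0.10 (adjusted p = 1.8e-07), also without overlap. Slc27a1 was lower in males too, at 55.8 to 60.2 CPM against 84.9 to 114 CPM in females (-0.73 ± 0.093, adjusted p = 0.000145). Slc27a2 was higher in males, at 2829 to 4003 against 2098 to 2952 CPM, with overlap (0.49 ± 0.12, adjusted p = 0.0189). Fabp3 did not pass (-0.02 ± 0.11).

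**Figure D4:**
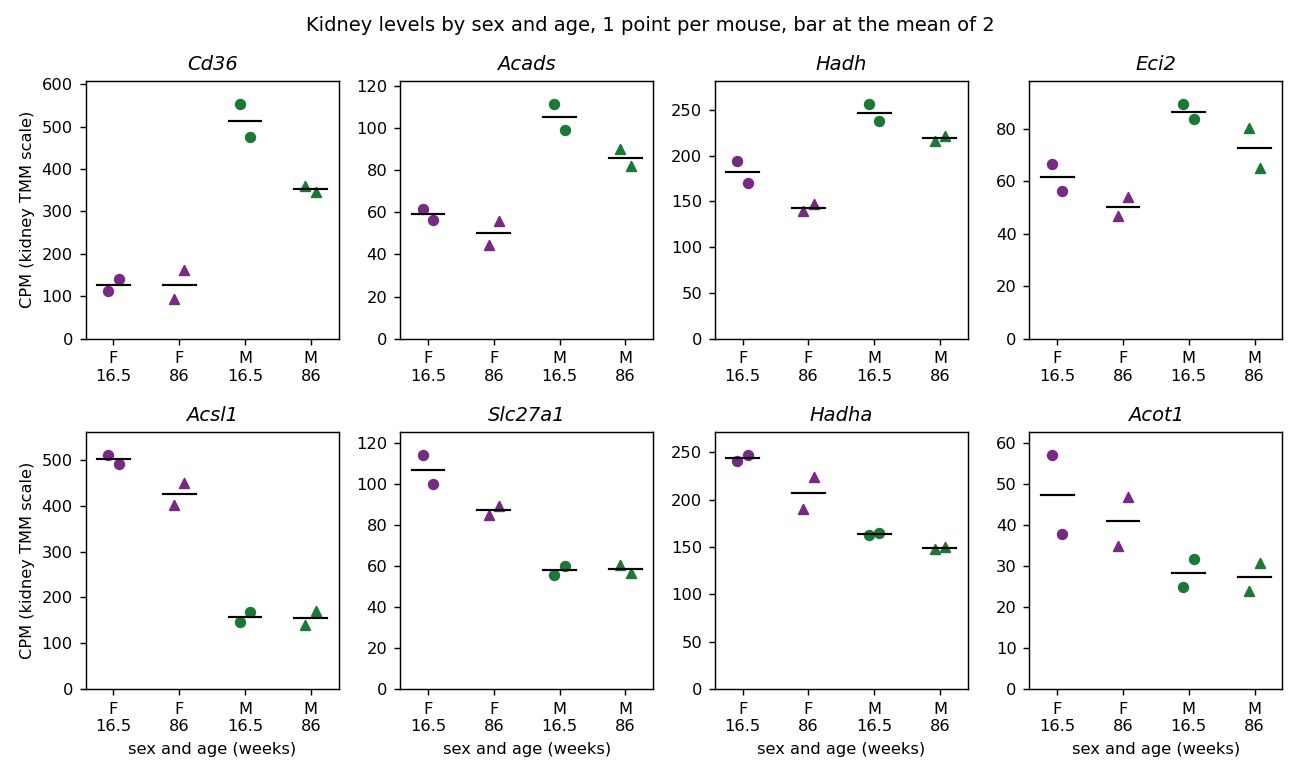
Kidney level in CPM of 8 of the 10 genes called in every fit that left out a library, 1 point per mouse by sex and age in weeks, bar at the mean of 2, axes from 0. The upper row (Cd36, Acads, Hadh, Eci2) is higher in males and the lower row (Acsl1, Slc27a1, Hadha, Acot1) higher in females at both ages.

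Within the oxidation pathway, enzymes of the same step divided by sex. Acads was at 61.5, 56.6, 44.6 and 56.1 CPM in the 4 females and at 111, 99.2, 90.2 and 82.0 CPM in the 4 males, without overlap (0.80 ± 0.095, edgeR adjusted p = 6.83e-05), whereas Acadm was lower in males (-0.42 ± 0.12, adjusted p = 0.0418). Hadh was higher in males, at 216 to 256 CPM against 139.6 to 194 CPM (0.53 ± 0.088, adjusted p = 0.00149). The trifunctional pair was lower in males. Hadha was at 240.4, 247, 190.2 and 224 CPM in females and 163, 165, 148 and 150.4 CPM in males, without overlap (-0.52 ± 0.086, adjusted p = 0.00132), and Hadhb at -0.37 ± 0.097 (adjusted p = 0.0283). Acaa2 was lower in males (-0.57 ± 0.12) and Eci2 and Etfa higher (0.51 ± 0.097 and 0.41 ± 0.093). In the carnitine shuttle, Cpt1a and Cpt2 were higher in males (0.48 ± 0.12 and 0.43 ± 0.11) and Cpt1b lower (-0.45 ± 0.12). Cpt1b made up 14.9% ± 3.1 (SD, n = 4) of the 2 isoforms in female kidneys and 8.33% ± 1.1 in male kidneys, without overlap. Both thioesterases were lower in males, Acot1 at -0.66 ± 0.14 and Acot2 at -0.36 ± 0.10.

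None of the 4 peroxisomal members passed for sex in kidney, nor did the regulators Ppara (0.12 ± 0.13) and Ppargc1a (-0.26 ± 0.079, adjusted p = 0.0645). In 4 genes all males lay above all females (Acads, Cd36, Etfa and Hadh; 5.85% of all genes) and in 5 all males lay below (Acaa2, Acot1, Acsl1, Hadha and Slc27a1; 6.05%). Marker genes of several cell types also differed by sex in kidney. Proximal tubule markers summed to 12809 to 18767 CPM in females and 21349 to 25897 CPM in males, with 8 of 12 called. Of these, 6 were higher in males, among them Slc7a13 (8.73), Cyp4b1 (4.10) and Acsm2 (2.15), which is also a synthetase of the pathway. The 2 lower in males were Lrp2 (-0.45) and Cubn (-0.41), so the list did not move as a whole. Markers of other nephron segments summed to 5354 to 6346 CPM in females and 3897 to 4713 CPM in males, with 5 of 8 called, all lower in males. The adipocyte marker sum was 8.69 to 228 CPM in females and 6.75 to 17.6 CPM in males, with 1 of 9 called, lower in males. Blood markers summed to 503 to 825 CPM in females and 369 to 472 CPM in males, with 5 of 5 called, all lower in males, and 2 of 8 endothelial markers, Pecam1 and Vwf, were called lower. Of the macrophage markers 0 of 9 were called. The part of cell types in the sex differences was not tested, and a marker can itself differ by sex within a cell type. Without 16.5-week mouse 15, the library with the high adipocyte sum, Acsl1 was at -1.55 and Cd36 at 1.75, while 6 genes no longer passed: Cpt1a (0.44), Slc27a2 (0.42), Cpt2 (0.35), Hadhb (-0.32), Cpt1b (-0.38) and Acadm (-0.45).

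**Figure D5:**
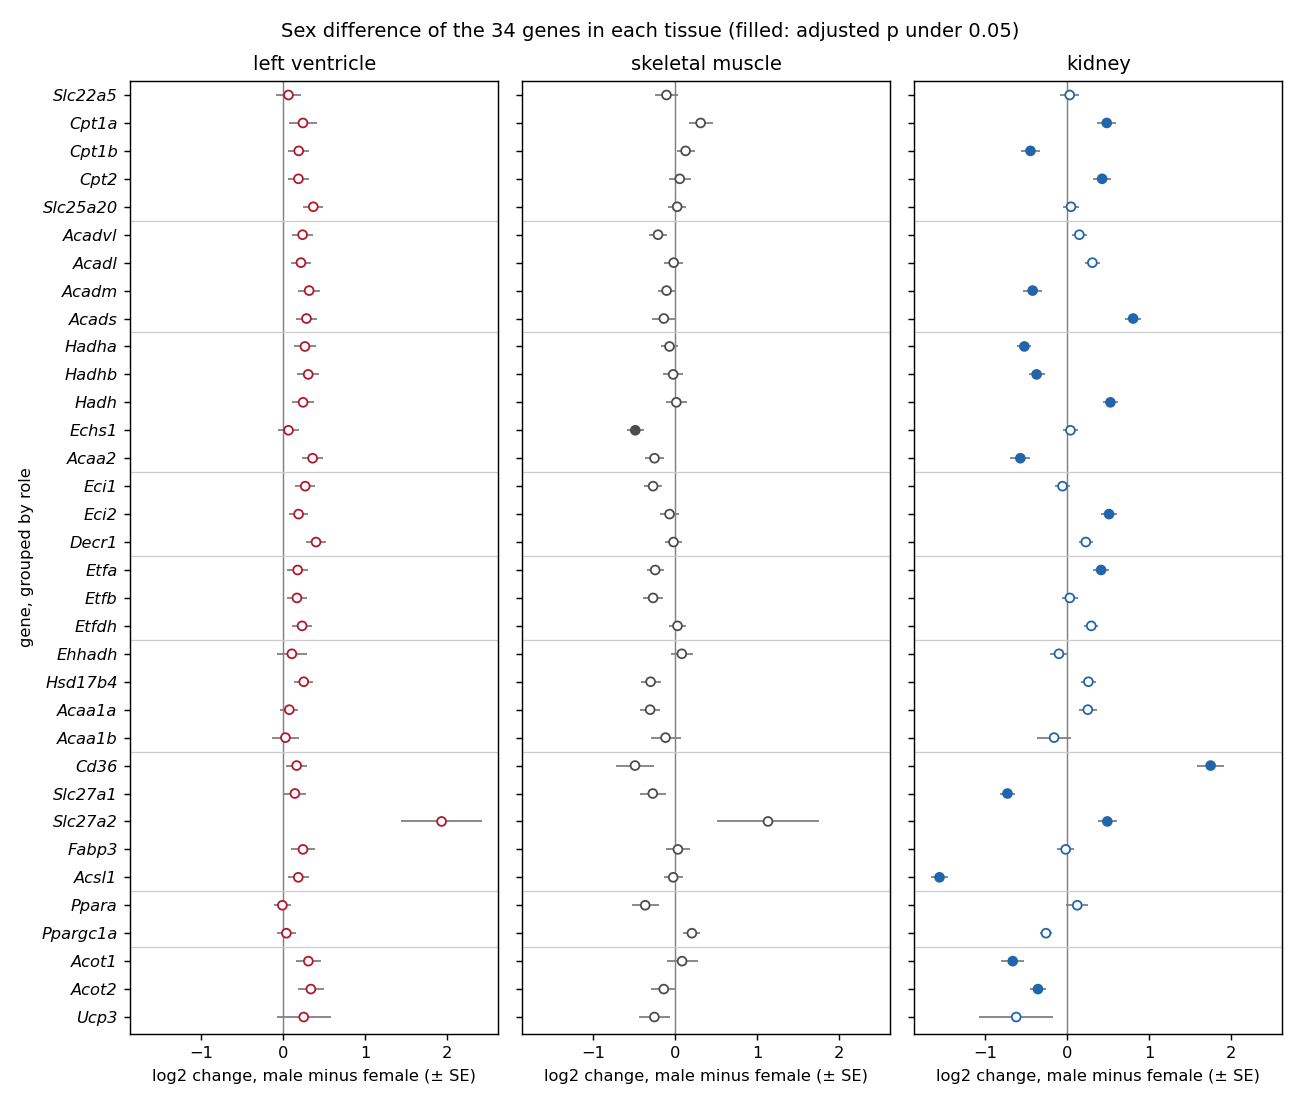
Sex difference of each gene (male minus female, log2 scale) with its SE in each tissue, from 4 libraries per sex, filled where the adjusted p is under 0.05. In kidney 8 genes are filled to the right and 9 to the left, in skeletal muscle 1 is filled, and in left ventricle 0.

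In left ventricle 0 of the 34 genes passed for sex by edgeR (0.871% of all genes called) and 10 had an unadjusted p under 0.05 (2273 of 44546 over all genes). Of the estimates, 33 of 34 were above 0, with a median of 0.23 (all genes -0.021). Single libraries stood at the ends of the range: the male 16.5-week mouse 20 held the highest value of 29 genes and the female 86-week mouse 12 the lowest of 17. Slc27a2 had the largest estimate, 1.93 ± 0.49 (adjusted p = 0.0990), on 1.01 to 1.46 CPM in females and on 1.31, 11.4, 6.19 and 1.31 CPM in the 4 males, the high values being those of the libraries with the proximal tubule traces. Without 16.5-week mouse 20 it was 1.03 (edgeR adjusted p = 0.735), and it passed without 16.5-week mouse 19 (2.27) and without 86-week mouse 17 (2.28). Decr1 (0.40 ± 0.12), Slc25a20 (0.37 ± 0.12) and Acaa2 (0.36 ± 0.13) followed, and those 3 and Acadm were called with library totals. In 0 of the 34 genes did the sexes lie apart (1.27% of all genes higher in males, 2.33% lower). The 34 genes took 0.975% ± 0.061 (SD, n = 4) of the counts in female and 1.11% ± 0.057 in male left ventricles.

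In skeletal muscle 1 of the 34 genes passed for sex (1.36% of all genes, 0.382% lower in males), Echs1. It was at 37.3, 36.1, 35.1 and 34.2 CPM in females and from 23.8 to 28.1 CPM in males, without overlap, a log2 difference of -0.49 ± 0.10 (edgeR adjusted p = 0.0288). The adjusted p lay between 0.0703 and 0.111 in each of the 6 fits without a 16.5-week mouse or an 86-week female. Eci1 and Hsd17b4 also lay lower in all males than in all females, so 3 of 34 did (2.88% of all genes). The estimate of Hsd17b4 was -0.30 ± 0.12 and that of Eci1 -0.27 ± 0.11, and neither passed. Whether a sex difference itself differed between tissues was not tested.

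Among the other genes of the pathway, listed by function, sex differences in kidney were also found. Over all genes, 3.77% were called higher in males and 3.81% lower. Of 15 other genes of mitochondrial oxidation, 6 were higher in males and 0 lower, with Acat1, the acetoacetyl-CoA thiolase, at 1.22 ± 0.090. Of 17 other peroxisomal genes 6 were higher and 1 lower, with Amacr, the racemase for branched chains, at 1.92 ± 0.12 and Acox3, a branched-chain oxidase, at 1.57 ± 0.10, against Hacl1, the lyase of alpha-oxidation, at -1.93 ± 0.097. Of 17 other synthetases and thioesterases 6 were higher and 6 lower. Acsm3, a medium-chain synthetase, was at 2.45 to 7.82 CPM in females and 247 to 761 CPM in males (6.78 ± 0.18), and Acot3, a peroxisomal thioesterase, was at -2.06 ± 0.13. Of 20 genes of uptake, binding and lipolysis 1 was higher and 4 lower, among them Mgll, monoacylglycerol lipase (-1.18 ± 0.10), and Fabp1, the liver-type binding protein, which was at or under 2.83 CPM in all kidneys (-2.68 ± 0.23). Of 20 regulators and PPAR targets 3 were higher and 3 lower, with Pdk4, which restrains glucose oxidation, at -1.53 ± 0.20. Of 5 genes of carnitine synthesis and transport, Aldh9a1 was higher (0.53 ± 0.10) and Shmt1 lower (-1.06 ± 0.089). These named genes kept their call in all 8 fits that left out a library (edgeR, adjusted p under 0.05). Fabp5, a binding protein also lower in males (-0.59 ± 0.14, edgeR adjusted p = 0.0161), kept its call in 4 of 8.

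For age within a tissue, 2 genes of these lists passed in total. Over all genes, 0.112% were called in kidney, 0.0741% in left ventricle and 0.0183% in skeletal muscle. Acsm5, a medium-chain synthetase, rose in left ventricle: it was at 2.82 to 6.21 CPM at 16.5 weeks and 7.32 to 11.9 CPM at 86 weeks, without overlap (a log2 change of 1.12 ± 0.16, edgeR adjusted p = 0.00419). It was also the 1 gene of these lists whose age change differed between tissues (edgeR adjusted p = 0.00605, with 0.0319% of all genes called). Acsm3 fell in kidney by 1.24 ± 0.15 on the log2 scale in a fit that allows for sex (adjusted p = 0.00802). Both were called in all 8 fits without a library and in 6 of 8 other settings. Lpl, lipoprotein lipase, did not pass in kidney (-0.82 ± 0.15, adjusted p = 0.0515), nor did Crot, the peroxisomal carnitine octanoyltransferase (-0.60 ± 0.12, adjusted p = 0.0919). In skeletal muscle Acsl3, an acyl-CoA synthetase, was higher in males (0.85 ± 0.18, adjusted p = 0.0355), and kept that call in 3 of 8 fits without a library.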

How the data were processed

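Gene counts from ribosome-depleted total RNA of 24 mouse libraries were deposited by the authors as one table of whole-number counts per gene. Per the submitters' processing notes, STAR 2.7.6a, StringTie 2.1.1 and GRCm38.p6 were used; the annotation release, the strand setting and the way counts were taken are not given in the sources used here. Total RNA was purified with a Zymo Direct-zol kit and libraries were made with a Zymo-seq ribofree kit, per the labels' protocols. Without a stated strand setting, reads of overlapping genes on opposite strands cannot be told apart. The largest such overlaps of members were of Acadvl with Dvl2 (1151 of 2686 exon bases) and of Acsl1 with Gm45244 (1039 of 10483). Gene identifiers were matched to GENCODE M21 (54349 of 55401).

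Counts were tested with edgeR 4.0.16 in R 4.3.3 (TMM factors, filterByExpr, quasi-likelihood F-test, two-sided, Benjamini-Hochberg over all genes kept, threshold 0.05). Age and sex were fitted together in the 8 libraries of each tissue (5 residual degrees of freedom). Tissues, and the age change between tissues, were fitted on all 24 libraries (15). The genes kept numbered 44546 in left ventricle, 43711 in skeletal muscle, 44572 in kidney and 46984 across tissues. The scripts were tested on simulated data. CPM values are scaled within a tissue, and CPM per kb over all 24 libraries. Pairing comes from the titles, since each mouse gave 3 tissues; same-mouse deviations correlated at -0.0945 to 0.430 over 17192 genes, and the mouse was a replicate block in an alternative (10 degrees of freedom). Other alternatives were DESeq2 1.42.0, other size factors, other filters, other samples and covariates, and leaving out each mouse; library totals without factors, and leaving out libraries whose marker sum of another tissue was over 3 times the tissue median (3 muscle libraries), were chosen after seeing the data. The members and the gene lists were chosen with earlier results of these data known. Every member is named. For age and sex, members past the threshold, or else the 4 with the smallest p, have their values given, and further genes were named for their roles after their values were seen. Of the carnitine synthesis list, 5 of 6 genes were tested. Sequences are from RefSeq.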

Additional observations from a re-analysis of the deposited data

Results flagged for a closer look

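Each of the 34 genes was checked in each tissue and age group of 4 mice for a single library far from the other 3 (above Dixon's critical value for 4 samples). Of 204 groups, 11 held one, and chance alone marks about 1 in 20 such groups. Values are CPM within the tissue.

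Slc27a2 accounted for 3 of them: 11.4 CPM in the left ventricle of 16.5-week mouse 20 (the others 1.26 to 1.44), 6.19 CPM in that of 86-week mouse 14 (1.01 to 1.46) and 16.5 CPM in the skeletal muscle of 16.5-week mouse 19 (1.45 to 2.40). These libraries also held the highest proximal tubule marker sums of their tissue and age, 87.7, 61.0 and 106 CPM, whose part was not tested.

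In kidney, Acaa1b was at 413 CPM in 16.5-week mouse 14 (the others 192 to 214), Fabp3 at 21.1 CPM in the same mouse (26.0 to 26.7) and Slc22a5 at 166 CPM in 86-week mouse 14 (136 to 138). In left ventricle, Acadm was at 1207 CPM in 86-week mouse 14 (820.3 to 885) and Acot1 at 8.32 CPM in 16.5-week mouse 15 (12.1 in each of the others). In skeletal muscle, Cpt1b was at 111 CPM in 16.5-week mouse 19 (83.7 to 86.6), Eci1 at 31.6 CPM in 16.5-week mouse 14 (26.9 to 27.1) and Decr1 at 39.2 CPM in 86-week mouse 17 (44.3 to 44.6).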

How the results depend on the processing

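The number of genes called for age stayed at 0 in skeletal muscle, in kidney and for the difference between tissues under every alternative run, and ranged from 0 to 1 in left ventricle when each library was left out (1, Ucp3, without 86-week mouse 14). For sex in left ventricle it was 1 with RLE size factors (Slc27a2), 4 with library totals, and 0 to 1 when each library was left out. For sex in skeletal muscle it was 0 with RLE size factors and 0 to 1 when each library was left out; without 16.5-week mouse 20 the 1 gene called was Cd36, and Echs1 was lost. For sex in kidney it was 9 in a single fit of all 24 libraries and 10 to 20 when each library was left out. The median age change in skeletal muscle was 0.054 with library totals. Directions that turned, of which Hadhb alone was called in the first place, were Acaa1b (left ventricle minus skeletal muscle) at 0.23 with library totals and 0.063 with the 16 libraries of those tissues; Slc27a2 (same comparison) at -1.37 to 0.17 when each mouse was left out (0.17 without 16.5-week mouse 19) and 0.091 without libraries with traces; Acads and Ppargc1a (kidney minus left ventricle) at 0.058 and 0.13 with library totals; and, in kidney minus skeletal muscle, Hadha and Hadhb at 0.42 and 0.31 with library totals, Slc25a20 at -0.13 with a filter of 1 CPM, and Eci1 at -0.20 with that filter, -0.0060 without libraries with traces, and -0.044 to 0.092 when each mouse was left out. The cause was not tested. With the mouse as a replicate block, 32 genes were called between left ventricle and skeletal muscle (Ucp3 added), 32 between kidney and left ventricle, 31 between kidney and skeletal muscle and 0 for age by tissue. Each sex and age had 2 mice, which limits the age and sex comparisons; the p-values measure the spread between these mice.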
